A study of Mus musculus with 36 samples.

Results

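PKBa-/- mouse embryonic fibroblasts at time 24 (4 arrays) were compared with the same cells at time 6 (4 arrays), which makes 8 of the 36 arrays of the study. The arrays were chosen by the genotype and time in their labels, and the change between these times is described, not the change from time 0. PKBa, also called Akt1, is a serine/threonine kinase that growth factor receptors switch on, and PKBa-/- cells lack both copies of its gene. The study measured PKBa-/- and wild type fibroblasts at times 0, 2, 6, 24 and 48, with 4 arrays for each genotype and time except time 2, which had 2, and the labels give no unit of time. Wild type arrays at time 24 (4) and time 6 (4) were used to ask whether a change differed between the genotypes.

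The labels give the same text on origin and culture for all groups. Per the labels, the fibroblasts came from 13.5-day embryos of intercrossed mice heterozygous for PKBa, were kept in DMEM with 10% foetal calf serum, and were used between passages 15 and 20. The series title calls the cells DMEM-treated; the labels also describe an adipocyte induction medium and do not say whether any of these arrays received it. They do not say how many embryos or lines gave the arrays of a genotype, so p-values measure only the spread between arrays, which may be technical.

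Growth factors in serum act through receptor kinases, and PKB relays part of that signal. It holds FoxO transcription factors out of the nucleus and, through the mTOR kinase, favours ribosome making, protein synthesis, sugar use and lipid synthesis. Fibroblasts respond to serum in waves. Immediate early transcription factors come first, genes for ribosome assembly, nucleotides and chaperones follow, and genes of DNA replication and then of mitosis come last in cells that divide.

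Signals are the deposited linear intensities, and each gene was read on its brightest probe set. A log2 change is the difference of mean log2(signal + 32), time 24 minus time 6, and is given ± its standard error from limma, with Benjamini-Hochberg adjusted p over the 7436 genes tested. A gene passed at an adjusted p under 0.05; a log2 change of 1 is a 2-fold difference on this scale, which understates changes of dim genes. Between different genes only changes are set side by side, since probe sets differ in brightness for the same amount of RNA. Where a gene's 4 signals at each time are given, the arrays of the 2 times did not overlap unless an overlap is named. Where a list is said to have no passing gene in a direction, over single arrays it also had none at an unadjusted p under 0.05 from limma unless a number is given.

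Array medians of the 8 arrays ran from 134 to 145. Within a group, replicates 1 and 2 resembled each other, as did replicates 3 and 4, with correlations over genes of 0.988 to 0.996 within these pairs, against 0.956 to 0.989 between them; the labels name no batch. Each pair was also averaged and counted as 1 sample (averaged pairs). Counts that this lowered by over 1.5 times are given both ways. Paired averages are the same values fitted with the pair as a covariate, and are given where the other fits lie far apart or where a call rests on the replicate number as a block. Akt1 had signals of 58.3, 75.8, 103 and 84.1 at time 24, against 78.6, 71.7, 74.4 and 43.8 at time 6, which overlap and gave no passing change (0.18 ± 0.14, adjusted p = 0.34). Markers of fibroblasts summed to 69242 to 74931 per array at time 24 and to 72014 to 75378 at time 6, with all 14 listed genes on the array and tested, 4 of them passing as higher and 2 as lower (2 and 0 with averaged pairs). Of the other cell classes, the 9-gene adipocyte list had 7 genes on the array, and their summed signal was 716 to 827 at time 24 against 582 to 629 at time 6; of its 2 tested genes Cebpa passed as higher, and its defining marker Adipoq was near the lowest signals of the array, at 17.6 at time 24 and 19.1 at time 6. Of the other markers on the array, tests covered 2 of 10 of blood, 2 of 8 of endothelial and 0 of 7 of epithelial cells. For mesothelial, muscle and neural cells they covered 2 of 4, 1 of 7 and 2 of 5. No tested marker of these classes passed. Among the untested, the neural gene Tubb3 averaged 52.2 at time 24 and 119 at time 6. The pan-leukocyte gene Ptprc, also untested, averaged 18.7 at time 24 and 17.2 at time 6.

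The passage from time 6 to time 24 changed a large part of the measured genes. Of 7436 genes tested, 1483 were higher at time 24 (19.9%) and 1508 were lower (20.3%), while 123 (1.65%) and 86 (1.16%) passed with at least a 2-fold difference. With averaged pairs, 644 and 684 genes passed. The shares of 19.9% higher and 20.3% lower are the background for every PKBa-/- list count over single arrays below. The median change over all tested genes was 0.0038. The 4 arrays of time 24 lay wholly above those of time 6 for 19% of genes and wholly below for 18.3%, so a gene without overlap is common here. In bulk RNA a change of signal per cell and a change in the share of cells that express a gene cannot be told apart.

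The genes that rose furthest encode growth factors and their receptors, cell surface proteins, a secreted protease and parts of the dividing cell. Klhl13, a substrate adaptor of the CUL3 ubiquitin ligase that in human cells acts on Aurora B during mitosis, had signals of 1285, 1085, 889.9 and 825 at time 24, against 131, 123, 102 and 99.1 at time 6. Each array of time 24 exceeded each array of time 6, and the change was the highest of all passing genes (2.84 ± 0.13, adjusted p = 1.1e-16). Igf1, the insulin-like growth factor that signals through PI3 kinase and PKB, had signals of 1006, 991, 648 and 679 at time 24, against 165, 154, 119 and 133 at time 6. Replicates 1 and 2 stood above 3 and 4 at both times, no array of time 24 overlapped with time 6, and the change was 2.28 ± 0.44, adjusted p = 8.6e-05. The other probe sets of Igf1 rose by less, at 1.16 and 1.01. Pdgfra, the receptor that most fibroblasts use for platelet-derived growth factor A, had signals of 3352, 3476, 2953 and 2628 at time 24, against 668, 769, 602 and 666 at time 6, again without overlap (2.14 ± 0.15, adjusted p = 1.7e-12). Vegfd, a ligand of vascular endothelial growth factor receptors, averaged 1075 ± 212 at time 24 and 264 ± 30.8 at time 6 (SD, n = 4 each; 1.89 ± 0.12, adjusted p = 6.9e-14).

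Scara5, a scavenger receptor that takes up ferritin in mouse cells, had signals of 1497, 1418, 1474 and 1129 at time 24, against 235, 245, 262 and 243 at time 6. Its time 6 arrays lay close together, and all 4 arrays of time 24 were far above them (2.34 ± 0.12, adjusted p = 2.5e-15). Ifitm1, a small interferon-induced membrane protein, had signals of 1238, 1001, 754 and 969 at time 24, against 177, 149, 197 and 176 at time 6, the lowest time 24 array being several times the highest of time 6 (2.29 ± 0.11, adjusted p = 2.0e-16). Adamts1, a secreted metalloprotease that cuts proteoglycans, had signals of 1656, 1691, 1755 and 1824 at time 24, against 390.3, 340.0, 389.6 and 408 at time 6, with narrow groups that did not overlap (2.09 ± 0.11, adjusted p = 2.5e-15). Nrk, a kinase of the germinal centre kinase family, had signals of 1050.0, 994, 422 and 536 at time 24, against 129, 118, 99.6 and 108 at time 6. Here the pairs parted within time 24, with replicates 1 and 2 well above replicates 3 and 4, and all 4 above time 6; the change was 2.33 ± 0.42, adjusted p = 4.1e-05. The other genes among the 15 with the highest change were Rab9, a GTPase of late endosomes (1.91), the Ras-like GTPase gene Rasl11b (1.84), the nucleosome-binding gene Hmgn5 (1.79), D17H6S56E-5 (1.77), and 3 genes of the division and chromatin lists described next, Ccnb2, Cenpa and H2az2.

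The genes that fell furthest serve sugar nucleotide and phosphate supply, chaperoning, redox defence, polyamines and the contractile cytoskeleton. Uap1, the enzyme that makes UDP-N-acetylglucosamine for glycoproteins and hyaluronan, had signals of 274, 245, 219 and 221 at time 24, against 1193, 1167, 909 and 909 at time 6, the lowest change among passing genes (-1.98 ± 0.11, adjusted p = 3.1e-15). Slc20a1, a sodium-dependent phosphate importer, had signals of 522, 524, 481 and 469 at time 24, against 1678, 2297, 1659 and 1703 at time 6 (-1.80 ± 0.14, adjusted p = 8.4e-12). Replicate 2 of time 6 was the highest array for Slc20a1, and all time 24 arrays lay below all time 6 arrays. Acsl4, which activates arachidonic acid, averaged 199 ± 23.3 at time 24 and 697 ± 68.5 at time 6 (SD, n = 4 each; -1.66 ± 0.23, adjusted p = 5.8e-07). Tubb2a, a beta tubulin, changed by -1.72 ± 0.14 and Smim3, a small membrane protein, by -1.59 ± 0.11. Tm4sf1, a membrane protein of the L6 family, averaged 204 ± 23.2 at time 24 and 669 ± 35.8 at time 6 (-1.57 ± 0.12, adjusted p = 8.4e-12). The remaining 9 of the 15 lowest changes, Hsph1, Srxn1, Gsto1, Tagln, Nolc1, Srm, Gclc, Id1 and Hk2, belong to lists described below.

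**Figure D1:**
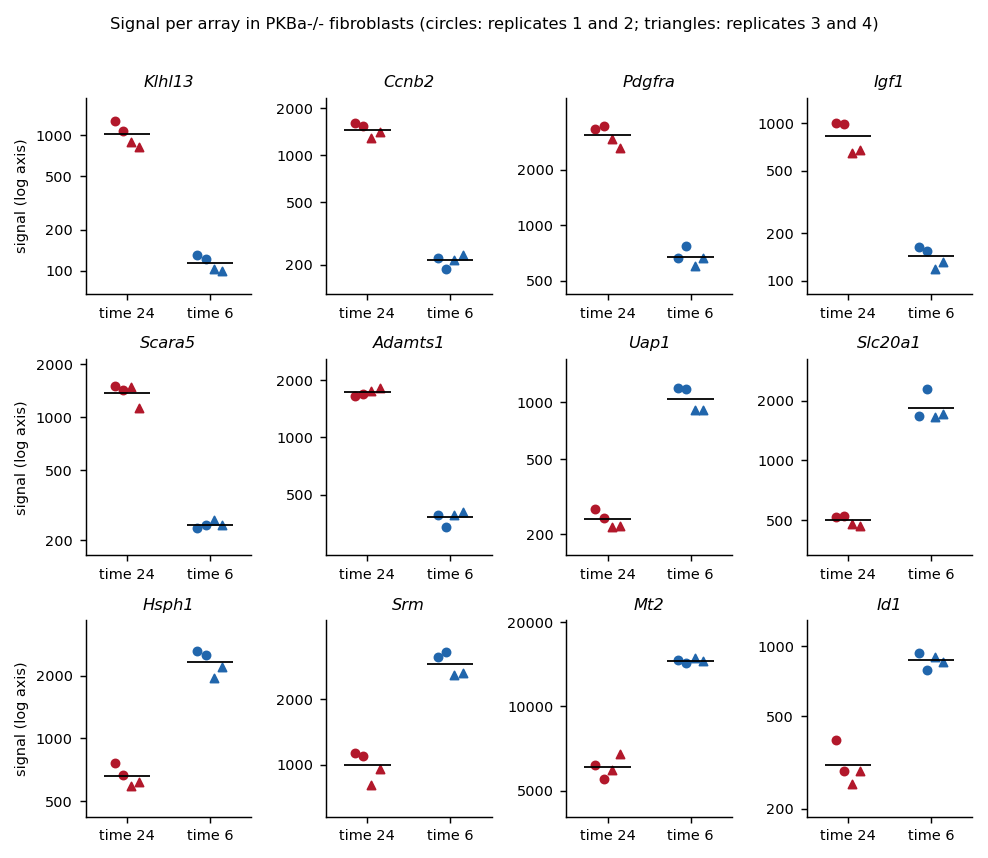
Signal per array (log axis, each panel with its own range) of 12 genes in PKBa-/- fibroblasts, time 24 on the left and time 6 on the right; circles are replicates 1 and 2, triangles replicates 3 and 4, and lines the means of 4 arrays. In each of the 12 panels the 4 arrays of time 24 lie wholly above or wholly below those of time 6.

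Most genes of mitosis rose. Of 41 tested members of that list (of 45 on the array), 36 passed as higher and 0 as lower, against 19.9% and 20.3% of all tested genes, and the median change was 0.85 against 0.0038. At an unadjusted p under 0.05, 1 member, Bub3, was lower. The median was 1.03 in replicates 1 and 2 and 0.66 in replicates 3 and 4. The 5 members that did not pass were the checkpoint genes Bub3 (-0.19) and Mad2l1 (0.17), the chromosomal passenger gene Incenp (0.09), the condensin gene Smc2 (0.22) and the Cdk1-binding gene Cks1b (0.08). With the replicate number as a block Bub3 passed as lower (-0.19), but not with paired averages. Ccnb2 encodes cyclin B2, a partner of the mitotic kinase Cdk1, and had signals of 1609, 1526, 1281 and 1415 at time 24, against 221, 188, 214 and 229 at time 6. The change of Ccnb2 was the highest of the list (2.60 ± 0.14, adjusted p = 3.1e-15) and no arrays overlapped. Cenpa, the histone H3 variant that marks centromeres, had signals of 1510.4, 1242, 1009 and 1259 at time 24, against 265, 239, 279 and 283 at time 6 (2.10 ± 0.16, adjusted p = 1.1e-11). Kif20a, a kinesin of the central spindle, averaged 583 ± 148 at time 24 and 152 ± 9.21 at time 6 (1.71 ± 0.17, adjusted p = 1.8e-09). Cenpf, a kinetochore protein, averaged 1076 ± 176 at time 24 and 314 ± 34.7 at time 6 (1.67 ± 0.14, adjusted p = 5.9e-11). Pttg1, the securin that holds back chromatid separation, averaged 3954 ± 501 at time 24 and 1259 ± 93.4 at time 6 (1.62 ± 0.16, adjusted p = 7.8e-10).

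Promoters of mitotic genes are known for CCAAT boxes, which NF-Y binds, and for the CHR element TTTGAA, through which the MuvB complex represses or activates them over the division cycle. Among the 34 tested members with a promoter in RefSeq (GRCm38.p6, 250 bases before to 50 after the start), 28 held CCAAT on either strand (82.4%), as did 38.3% of the 6056 tested genes with a promoter and 37.4% of all 32817 promoters in the table. TTTGAA stood on either strand in 26 of them (76.5%), against 11.4% of tested genes and 17.9% of all promoters. The pair of motifs does not overlap in its letters, and a match is a description of the sequence, not a bound site. Ncapd2 encodes a condensin subunit, Mki67 the Ki-67 protein of the chromosome surface, and Ube2c the ubiquitin-conjugating enzyme of the anaphase-promoting complex. Their 150 bases before the start are shown. Among passing members searched for display that hold both motifs there, these 3 had the highest changes (1.49 ± 0.10, 1.37 ± 0.14 and 1.37 ± 0.17). Not every passing member was searched for display, so members with larger changes may also hold both motifs. The sequences run 5′ to 3′ on the gene's strand with both motifs in capitals. They lie at chr6:125191587-125191736, minus strand, at chr7:135716380-135716529, minus strand and at chr2:164769779-164769928, plus strand.
Ncapd2: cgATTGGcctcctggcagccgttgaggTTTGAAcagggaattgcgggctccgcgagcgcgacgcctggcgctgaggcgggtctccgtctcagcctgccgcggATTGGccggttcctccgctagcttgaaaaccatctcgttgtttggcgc
Mki67: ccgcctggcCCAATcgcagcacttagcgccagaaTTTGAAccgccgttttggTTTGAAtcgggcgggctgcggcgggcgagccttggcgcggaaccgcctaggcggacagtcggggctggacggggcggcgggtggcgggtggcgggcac
Ube2c: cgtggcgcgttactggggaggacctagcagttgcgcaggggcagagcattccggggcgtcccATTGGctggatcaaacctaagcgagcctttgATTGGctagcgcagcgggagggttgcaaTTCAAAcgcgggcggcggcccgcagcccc
In each of the 3 promoters TTTGAA or its other strand TTCAAA lies with at least 1 CCAAT, or ATTGG on the other strand. Mki67 averaged 713 ± 189 at time 24 and 249 ± 19.0 at time 6 and Ube2c 1943 ± 312 at time 24 and 729 ± 65.2 at time 6 (SD, n = 4 each), and Ncapd2 had means of 1206 and 404, all without overlap between the times.

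Genes of DNA replication went the other way. Of 34 tested members, 4 passed as higher, 16 as lower and 14 did not pass, against 19.9% higher and 20.3% lower of all tested genes. The median was -0.30 (-0.15 in replicates 1 and 2 and -0.40 in replicates 3 and 4). With averaged pairs, 2 higher and 9 lower members passed. Cdt1, which loads the MCM helicase onto origins, had signals of 558, 522, 353 and 358 at time 24, against 1075, 1121, 881 and 973 at time 6 (-1.14 ± 0.12, adjusted p = 4.1e-09). Mcm2, a subunit of that helicase, averaged 450.0 ± 145 at time 24 and 844 ± 119.8 at time 6 (-0.90 ± 0.14, adjusted p = 3.1e-06), and Rpa2, which coats single-stranded DNA, averaged 171 ± 25.2 at time 24 and 362 ± 21.3 at time 6 (-0.96 ± 0.13, adjusted p = 4.2e-07). Ccne1, the cyclin that drives entry into S phase, changed by -0.79 ± 0.07, and Rrm2, the small subunit of ribonucleotide reductase, by -0.79 ± 0.14. The 4 members that were higher were the thymidine kinase gene Tk1 (0.74), the polymerase gene Pola1 (0.53), the DNA ligase gene Lig1 (0.31) and the clamp loader gene Rfc2 (0.29). Lig1 and Rfc2 did not pass with averaged pairs, and Lig1 did not pass without replicate 1 (0.21) or replicate 2 (0.25) of time 24.

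Of 15 tested G1 cyclins, CDK inhibitors and pocket proteins, 4 were higher and 2 lower, against 19.9% and 20.3% of all tested genes. The share that passed was near the 40.2% of all tested genes. Of the 4 higher genes, 3 encode CDK inhibitors. Cdkn2b, which encodes the inhibitor p15 of CDK4 and CDK6, had signals of 1041, 911, 867 and 909 at time 24, against 269, 317, 314 and 297 at time 6 (1.54 ± 0.18, adjusted p = 3.8e-08). Cdkn1b, the p27 gene and a FoxO target, averaged 730.4 ± 104 at time 24 and 428 ± 73.3 at time 6 (0.73 ± 0.12, adjusted p = 1.0e-05), and Cdkn2c, the p18 gene, averaged 1122 ± 227 at time 24 and 708 ± 38.1 at time 6 (0.62 ± 0.11, adjusted p = 2.8e-05). Ccng2, an atypical cyclin linked to cell cycle exit, averaged 948 ± 82.2 at time 24 and 290.1 ± 83.4 at time 6 (1.64 ± 0.14, adjusted p = 7.9e-11). The D-type cyclin gene Ccnd2 (-0.75) and the repressor gene E2f4 (-0.35) were lower. Of 7 tested histone genes 5 were higher and none was lower, with H2az2 at 1.83 ± 0.15 and H2az1 at 0.79 ± 0.13, both encoding H2A.Z, the linker histone genes H1f10 at 0.78 ± 0.07 and H1f2 at 0.70 ± 0.14, and Macroh2a1 at 0.33 ± 0.08. Macroh2a1 did not pass with averaged pairs.

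Ribosome biogenesis, the making of rRNA and its assembly with proteins in the nucleolus, fell across nearly its whole list. Of 35 tested members 33 were lower, the median was -0.72, and both pairs of replicates gave close values (-0.74 and -0.69). Nolc1, a nucleolar chaperone of small nucleolar ribonucleoproteins, had signals of 382, 355, 283 and 291 at time 24, against 1143, 1149, 851 and 922 at time 6 (-1.54 ± 0.10, adjusted p = 2.3e-13). Nop56, a core protein of box C/D small nucleolar ribonucleoproteins, averaged 759 ± 133 at time 24 and 1879.8 ± 233 at time 6 (-1.28 ± 0.11, adjusted p = 6.5e-11). Rrp1b, a nucleolar protein of rRNA processing, changed by -1.28 ± 0.10, Rrs1, needed for large subunit assembly, by -1.27 ± 0.11, and the rRNA methyltransferase gene Nop2 by -1.15 ± 0.10. Polr1c, a subunit shared by RNA polymerases I and III, was higher (0.48 ± 0.13, adjusted p = 0.0038), though not with averaged pairs. Of 39 tested ribosomal protein genes only 6 passed, and the median was 0.05. The one among these 6 that passed with averaged pairs was Rpl12 (-0.50 ± 0.11).

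Of 16 tested genes of polyamine and nucleotide synthesis 13 were lower, with a median of -0.61. Srm, which makes spermidine, had signals of 1126, 1092, 804 and 956 at time 24, against 3118, 3305, 2592 and 2629 at time 6 (-1.52 ± 0.12, adjusted p = 1.1e-11). Odc1, the first enzyme of the polyamine route, averaged 1169 ± 185 at time 24 and 2580.0 ± 442 at time 6 (-1.12 ± 0.10, adjusted p = 2.9e-10). Cad, which starts pyrimidine synthesis, changed by -0.88 ± 0.09, Gart, a trifunctional purine enzyme, by -0.85 ± 0.09, and Ctps, which makes CTP, by -0.81 ± 0.12. Paics, another purine enzyme, was the 1 member that was higher (0.47 ± 0.10, adjusted p = 2.2e-04), and the purine gene Adsl passed as lower only with the replicate number as a block (-0.26, against -0.26 without it), and not with paired averages.

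Other parts of the growth machinery fell by less, and for the proteasome the share of lower genes over single arrays was near the 20.3% of all tested genes. Of 18 tested aminoacyl-tRNA synthetase genes 13 were lower (median -0.38), of which 5 passed with averaged pairs. Hars changed by -0.73 ± 0.10, Rars by -0.68 ± 0.12 and Gars by -0.67 ± 0.11. Qars was higher (0.35), but not with averaged pairs, and Vars (0.21) passed as higher with the replicate number as a block (0.21) but not with paired averages. Of 31 carriers and pore proteins of nuclear transport 18 passed, 17 of them as lower, or 8 with averaged pairs, with the tRNA exporter gene Xpot at -1.25 ± 0.20 and the importin gene Kpna1 at -0.89 ± 0.09. Of 38 genes of mitochondrial protein import and translation 21 passed, 18 of them as lower (12 with averaged pairs, each lower), with a median of -0.22. The 4 lowest were the import genes Timm8a1 (-1.29 ± 0.11), Tomm70a (-0.96 ± 0.11), Timm10 (-0.76 ± 0.12) and Timm23 (-0.72 ± 0.08). Of 32 translation factors 17 passed, 12 of them as lower (9 and 8 with averaged pairs), with a median of -0.19. Eef1e1 (-1.03), the initiation factor genes Eif3b (-0.71) and Eif4e (-0.63), and Eif6 (-0.59) were among the lower, and Eif4b had the highest change (0.57). In the proteasome 9 of 33 tested genes passed, below the 40.2% of all tested genes, and the list median was -0.10. Of the 9, 8 were lower (3 with averaged pairs, 11 with paired averages and 13 with the replicate number as a block), among them Psmd14 (-0.67) and Psmc4 (-0.64).

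Protein folding genes fell in both the endoplasmic reticulum and the cytosol. In the endoplasmic reticulum list 17 of 23 tested genes were lower and none higher, with a median of -0.45; with averaged pairs 11 passed. Hspa5, the main chaperone of that compartment (BiP), had signals of 4946, 4676, 4180.2 and 3763 at time 24, against 8205, 8555, 7665 and 7978 at time 6 (-0.89 ± 0.08, adjusted p = 2.0e-10). Xbp1, the transcription factor of the unfolded protein response, averaged 1156 ± 123 at time 24 and 2183 ± 217 at time 6 (-0.90 ± 0.09, adjusted p = 2.0e-09), and Ero1a, the oxidase that forms disulfide bonds, averaged 336 ± 44.3 at time 24 and 694 ± 93.9 at time 6 (-0.98 ± 0.08, adjusted p = 7.9e-11). Manf, a secreted stress protein, changed by -0.76 ± 0.18, and the J protein gene Dnajb9 by -0.96 ± 0.22, the last not passing with averaged pairs. In the cytosolic list 11 of 19 tested genes were lower, none was higher and the median was -0.47. Hsph1, a nucleotide exchange factor of Hsp70, had signals of 765, 671, 589 and 615 at time 24, against 2633, 2514, 1958 and 2196 at time 6 (-1.77 ± 0.19, adjusted p = 5.0e-09). Hspa1b, an inducible Hsp70, averaged 172 ± 21.5 at time 24 and 378 ± 52.8 at time 6 (adjusted p = 3.4e-09); its near-identical copy Hspa1a can share its probes, so the 2 cannot be told apart here. Bag3, a co-chaperone, changed by -0.97 ± 0.10, and Dnajb1 by -0.63 ± 0.07.

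The promoter elements known for these programmes were searched in the same windows. The endoplasmic reticulum stress element, which is CCAAT and CCACG with 9 bases between them, stood on either strand in 8 of 21 promoters of the endoplasmic reticulum list (38.1%), against 0.182% of tested genes and 0.119% of all promoters, and it contains the CCAAT searched above. GAANNTTC, a part of the heat shock element that reads alike on both strands, stood in 8 of 17 promoters of the cytosolic list (47.1%), against 5.75% and 7.86%. TGATGNAA, the element bound by ATF4 with C/EBP partners, stood on either strand in 5 of 11 tRNA synthetase promoters (45.5%) and in 5 of 23 of the amino acid supply list (21.7%), against 2.05% and 3.97%. The E-box CACGTG, which Myc can bind, stood in 7 of 29 ribosome biogenesis promoters (24.1%) and in 2 of 14 of the polyamine and nucleotide list (14.3%), against 10.6% and 7.15%. Shown are the 150 bases before the start of passing members that hold their element there, with its fixed letters in capitals. They were taken from the members searched for display, those with the lowest changes first. Not every passing member was searched for display, so members with lower changes may also hold their element. For the endoplasmic reticulum they are Hspa5 (chr2:34771940-34772089, plus strand), Creld2 (-0.55 ± 0.12; chr15:88819496-88819645, plus strand) and Syvn1 (-0.49 ± 0.09; chr19:6046426-6046575, plus strand). For heat shock they are Hspa1b (chr17:34959239-34959388, minus strand) and Hspb1 (-0.51 ± 0.11; chr5:135887769-135887918, plus strand). For the tRNA synthetases they are Gars (chr6:55037851-55038000, plus strand) and Tars (-0.55 ± 0.11; chr15:11399659-11399808, minus strand).
Hspa5: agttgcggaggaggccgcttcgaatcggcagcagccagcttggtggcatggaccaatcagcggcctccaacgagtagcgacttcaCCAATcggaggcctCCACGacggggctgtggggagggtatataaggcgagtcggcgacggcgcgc
Creld2: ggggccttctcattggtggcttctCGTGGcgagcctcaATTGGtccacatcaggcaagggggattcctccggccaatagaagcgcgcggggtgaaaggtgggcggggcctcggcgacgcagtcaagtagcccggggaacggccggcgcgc
Syvn1: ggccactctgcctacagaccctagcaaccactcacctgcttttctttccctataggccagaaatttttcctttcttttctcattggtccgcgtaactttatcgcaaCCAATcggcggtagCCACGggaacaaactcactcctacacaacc
Hspa1b: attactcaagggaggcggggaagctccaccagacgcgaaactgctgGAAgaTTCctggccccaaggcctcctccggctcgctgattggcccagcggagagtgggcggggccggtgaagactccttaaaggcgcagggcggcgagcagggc
Hspb1: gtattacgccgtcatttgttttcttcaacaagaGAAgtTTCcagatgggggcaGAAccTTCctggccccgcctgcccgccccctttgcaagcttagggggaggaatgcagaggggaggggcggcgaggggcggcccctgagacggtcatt
Gars: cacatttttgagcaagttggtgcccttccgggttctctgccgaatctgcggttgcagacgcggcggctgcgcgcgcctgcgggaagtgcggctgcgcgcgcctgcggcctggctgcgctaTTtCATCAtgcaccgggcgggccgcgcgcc
Tars: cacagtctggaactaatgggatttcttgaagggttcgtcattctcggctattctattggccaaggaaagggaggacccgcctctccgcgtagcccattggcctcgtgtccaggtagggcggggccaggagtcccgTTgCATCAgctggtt
Hspb1 holds GAANNTTC at 2 places and the other 6 promoters hold their element once. Creld2 encodes a disulfide isomerase-like protein, Syvn1 the ubiquitin ligase of endoplasmic reticulum associated degradation, and Hspb1 a small heat shock protein; Creld2 did not pass with averaged pairs.

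**Figure D2:**
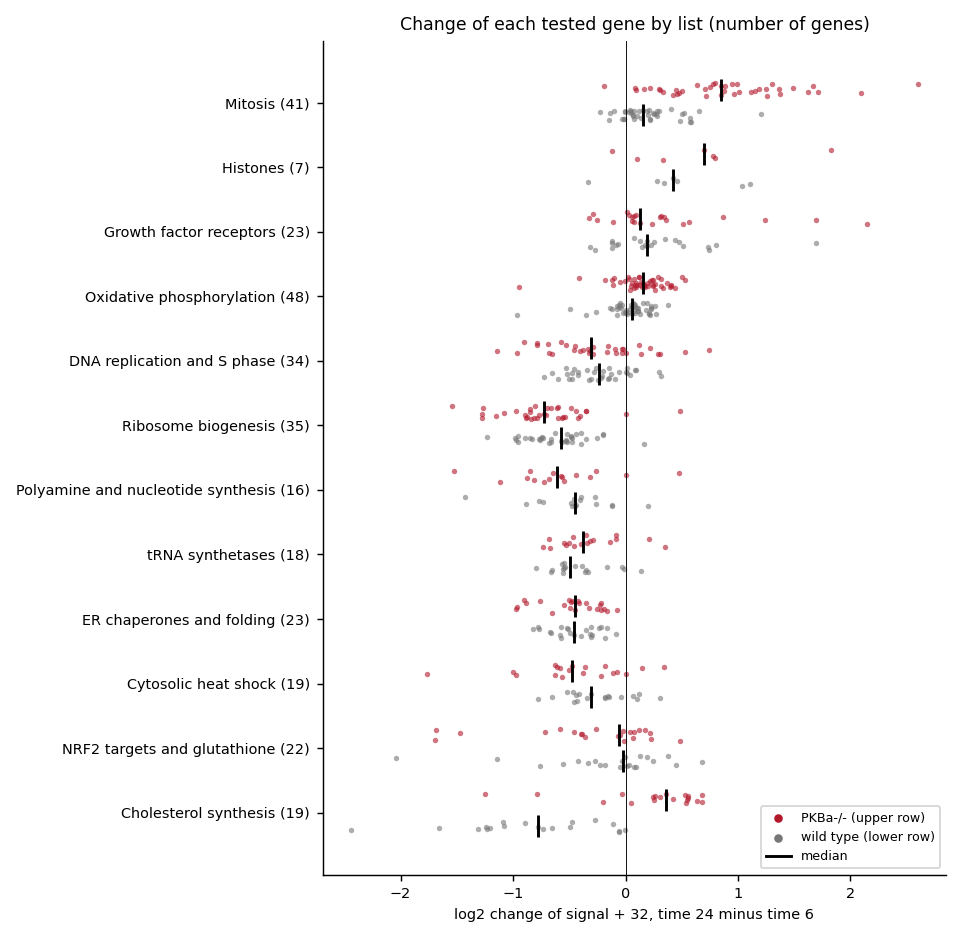
Each dot is the log2 change of 1 tested gene, time 24 minus time 6, in 12 gene lists (number of genes in parentheses); in each list the upper row is PKBa-/-, the lower row wild type, and the black lines are medians. In PKBa-/- the mitosis genes centre at 0.85 and the ribosome biogenesis genes at -0.72, and the cholesterol synthesis medians of the 2 genotypes lie on opposite sides of 0.

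Amino acid supply genes of the ATF4 response split. Of 25 tested members 14 were lower (5 with averaged pairs), led by the mitochondrial folate enzyme gene Mthfd2 (-1.08 ± 0.16, adjusted p = 2.8e-06), the serine enzyme gene Psph (-0.96 ± 0.15, adjusted p = 8.0e-06) and the neutral amino acid carrier gene Slc7a5 (-0.89 ± 0.13, adjusted p = 2.2e-06). The 5 members that were higher are not amino acid enzymes. They were the lipoprotein receptor gene Vldlr (1.25 ± 0.13, adjusted p = 8.3e-09), the stress-induced nuclear protein gene Nupr1 (1.00 ± 0.19, adjusted p = 6.5e-05), the mTOR inhibitor gene Ddit4 (0.66), and the transcription factor genes Cebpg (0.34) and Ddit3 (0.29). With averaged pairs only Vldlr and Nupr1 of these 5 passed, and Ddit3 did not pass when any 1 of 4 arrays (time 24 replicate 1 or 2, time 6 replicate 3 or 4) was left out (0.20 to 0.26).

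Redox and metal genes gave some of the lowest changes without a shift of their whole lists. Of 22 tested NRF2 targets and glutathione genes 9 were lower (5 with averaged pairs), and the median was -0.06. Gpx1 was higher (0.49), though not with averaged pairs. The share that passed was near the 40.2% of all tested genes, of which 20.3% were lower and 19.9% higher. Srxn1, the sulfiredoxin that repairs peroxiredoxins, had signals of 214, 213, 216 and 171 at time 24, against 838, 739.6, 745 and 609.9 at time 6 (-1.70 ± 0.11, adjusted p = 1.7e-13). Gsto1, a glutathione transferase, averaged 2018 ± 89.1 at time 24 and 6567 ± 207 at time 6 (-1.69 ± 0.18, adjusted p = 4.1e-09), and Gclc, the first enzyme of glutathione synthesis, averaged 293 ± 23.0 at time 24 and 869.7 ± 69.2 at time 6 (-1.47 ± 0.12, adjusted p = 3.6e-11). The metallothionein genes Mt2 and Mt1 encode metal-binding proteins. Mt2 had signals of 6148, 5505, 5898 and 6756 at time 24, against 14611, 14257, 14831 and 14526 at time 6 (-1.26 ± 0.15, adjusted p = 5.9e-08), and Mt1 changed by -1.07 ± 0.15, so both were lower in all 4 arrays of time 24. In the same list the glucocorticoid target Tsc22d3 (1.02 ± 0.16) and the glucocorticoid receptor gene Nr3c1 (0.87 ± 0.08) were higher.

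FoxO factors, which PKB restrains, switch on the genes of the next list. Of 19 tested members 9 were higher and 2 lower, with a median of 0.26, against 19.9% and 20.3% of all tested genes. The lower ones were Sod2 (-0.86) and, not with averaged pairs, Pik3ca (-0.32). In wild type 10 were higher and 1 lower (3 and 0 with averaged pairs), with a median of 0.31. The genotype difference passed for 1 gene in each direction (0 genes with averaged pairs, 2 with paired averages and 9 with the block). Txnip, an arrestin-like brake on glucose uptake, had signals of 1203, 1348, 1561 and 1233 at time 24, against 573, 530.3, 613 and 573 at time 6 (1.17 ± 0.10, adjusted p = 6.9e-11). Sesn3, a stress protein that restrains mTOR, averaged 705 ± 129 at time 24 and 301 ± 9.10 at time 6 (1.13 ± 0.11, adjusted p = 1.4e-09), and Bnip3, a mitophagy receptor, averaged 884 ± 172 at time 24 and 439 ± 13.8 at time 6 (0.94 ± 0.15, adjusted p = 3.9e-06). Among glycolysis and hypoxia genes 6 of 21 were higher and 6 lower, or 3 and 2 with averaged pairs, against 19.9% and 20.3% of all tested genes over single arrays. Hk2, the inducible hexokinase, had signals of 570.4, 507, 433 and 434 at time 24, against 1474, 1539, 1161 and 1212 at time 6 (-1.41 ± 0.20, adjusted p = 1.0e-06), while the muscle-type phosphofructokinase gene Pfkm changed by 0.78 ± 0.07 and, not passing with averaged pairs, the lactate dehydrogenase B gene Ldhb by 0.86 ± 0.19. The regulator Pfkfb3, which raises glycolytic flux, changed by -0.60 ± 0.11. Of 48 respiratory chain genes 14 were higher with a median of 0.15, against 19.9% of all tested genes, but 3 with averaged pairs. The larger of these changes were in the complex I subunits Ndufb3 (0.53) and Ndufb10 (0.50). Cycs, which encodes cytochrome c, was the lowest of that list (-0.95 ± 0.14, adjusted p = 1.4e-06).

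The medians of the cholesterol synthesis genes had opposite signs in the 2 genotypes. In PKBa-/- 9 of the 19 tested genes rose and 2 fell (median 0.36), and 0 were higher and 14 lower in wild type (median -0.78); over all tested genes the wild type shares were 18.8% higher and 14.6% lower. The change differed between the genotypes for 16 of 19 genes, each in favour of PKBa-/-, against 4.16% of all tested genes in that direction. The 3 whose difference did not pass were Srebf2 (0.16), Ebp (0.31) and Tm7sf2 (0.58), of which Tm7sf2 passed with the replicate number as a block (0.58) but not with paired averages. With averaged pairs 1 gene passed as higher in PKBa-/- and 2 passed for the genotype difference, and with paired averages 10 and 12 did. The PKBa-/- median was 0.59 in replicates 1 and 2 but 0.18 in replicates 3 and 4, against -0.72 and -0.92 in wild type, and in both pairs all 19 genes had the higher change in PKBa-/-.

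Hmgcs1, which makes HMG-CoA for the sterol pathway, had signals of 2834, 2692, 1837 and 1695 at time 24, against 1284, 1629.9, 1323 and 1422 at time 6 in PKBa-/-, and of 954, 1046, 619 and 665 at time 24, against 2014, 1768, 1894 and 2070.4 at time 6 in wild type. The change was 0.64 ± 0.20 in PKBa-/- and -1.24 ± 0.20 in wild type, and the difference of 1.87 ± 0.28 passed (adjusted p = 2.9e-05). Cyp51, which removes a methyl group from lanosterol, changed by 0.68 ± 0.20 and -1.23 ± 0.20 (difference 1.91 ± 0.29, adjusted p = 2.8e-05), and Dhcr7, the last enzyme of the pathway, by 0.68 ± 0.13 and -0.06 ± 0.13 (difference 0.74 ± 0.18, adjusted p = 0.0068). With averaged pairs none of these 3 differences passed (that of Dhcr7 not with paired averages either), nor did the PKBa-/- changes of Hmgcs1 and Cyp51, and without replicate 1 of time 24 the PKBa-/- change of Hmgcs1 was 0.52 and did not pass. The 2 lower genes of the list were Pmvk, the phosphomevalonate kinase (-1.25 ± 0.22, adjusted p = 2.7e-05), and Hsd17b7, a sterol reductase (-0.79 ± 0.12, adjusted p = 2.2e-06); in wild type they changed by -2.44 ± 0.22 and -1.31 ± 0.12. The sterol element TCACNCCAC stood in 1 of 15 promoters of the list on either strand, against 0.974% of tested genes and 1.24% of all promoters.

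**Figure D3:**
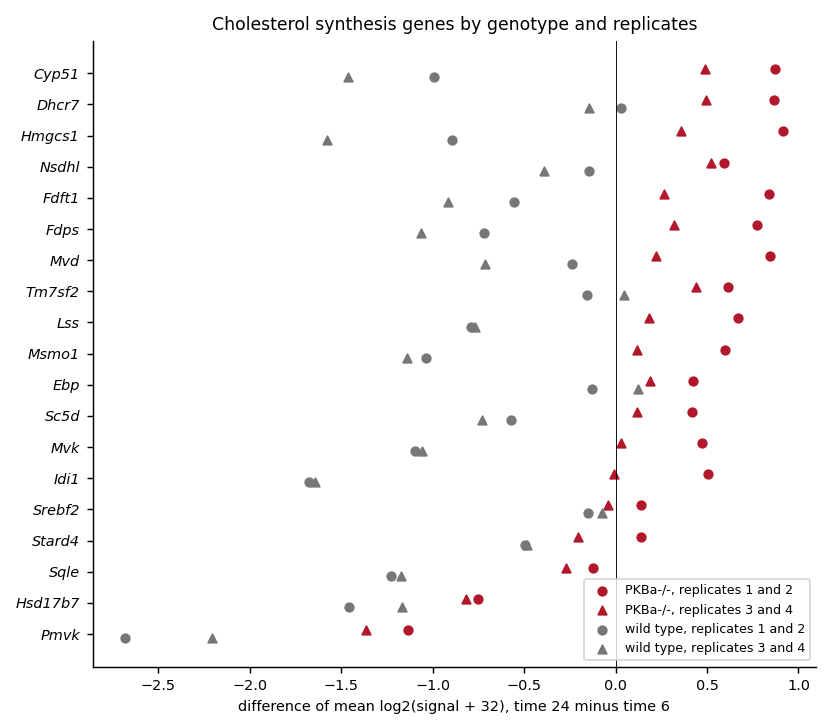
Difference of mean log2(signal + 32), time 24 minus time 6, for the 19 tested cholesterol synthesis genes, ordered by the PKBa-/- change; red symbols are PKBa-/-, grey symbols wild type, circles replicates 1 and 2 and triangles replicates 3 and 4. For each gene the red circle lies right of the grey circle and the red triangle right of the grey triangle.

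Fatty acid synthesis did not follow cholesterol synthesis. Of 12 tested genes 8 passed, 6 of them as lower, against 40.2% and 20.3% of all tested genes, but with averaged pairs 1 passed. Scd1, the delta-9 desaturase, averaged 1647 ± 168 at time 24 and 4156 ± 178 at time 6 (-1.32 ± 0.13, adjusted p = 1.1e-09). Fasn, fatty acid synthase, was lower (-0.50) and the desaturase gene Fads2 higher (0.40), but neither passed with averaged pairs. Plin2, the coat protein of lipid droplets, was higher (1.23 ± 0.08, adjusted p = 7.2e-14) with means of 1145 at time 24 and 469 at time 6, and Cebpa, an adipogenic transcription factor, changed by 0.74 ± 0.13. In that adipogenic list 7 of 20 tested genes passed (2 with averaged pairs), a share below the 40.2% of all tested genes, and Adipoq stayed at the low signals given above.

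Some growth factor receptors beyond the leading genes also rose. Of 23 tested receptor genes 8 were higher and none lower (2 at an unadjusted p under 0.05, 1 with paired averages and 3 with the block). Over all tested genes 19.9% were higher and 20.3% lower, and the share of the list that passed was below the 40.2% of all tested genes. With averaged pairs 4 of the 8 passed, and the median of the list was 0.13. Ghr, the growth hormone receptor, had signals of 2951, 2952, 2286 and 2135 at time 24, against 859, 943, 616 and 686 at time 6, with replicates 1 and 2 above 3 and 4 at both times (1.70 ± 0.32, adjusted p = 6.6e-05). Fgfr2, a receptor of fibroblast growth factors, averaged 1094 ± 113 at time 24 and 442 ± 14.8 at time 6 (1.24 ± 0.12, adjusted p = 1.9e-09). Pdgfrb changed by 0.87 ± 0.19 and Igf2r, which clears IGF2, by 0.51 ± 0.12, neither passing with averaged pairs. Of 27 secreted growth factor genes 6 were higher and 4 lower, shares near the 19.9% and 20.3% of all tested genes (5 and 2 with averaged pairs, 8 and 5 with paired averages, 8 and 9 with the block). Kitl, the ligand of the receptor Kit, averaged 481 ± 120.5 at time 24 and 139 ± 43.3 at time 6 (1.59 ± 0.18, adjusted p = 3.2e-08), and Bmp4 averaged 341 ± 104 at time 24 and 113 ± 31.0 at time 6 (1.34 ± 0.22, adjusted p = 7.7e-06). The other higher ones were Angpt1 (0.87) and Vegfb (0.80) beside Igf1 and Vegfd, and the lower ones were Pdgfa (-0.43), Hbegf (-0.43), Bmp1 (-0.30) and the chemokine gene Cxcl12 (-0.75). Angpt1, Hbegf and Bmp1 did not pass with averaged pairs, and Bmp1 did not pass without replicate 1 of time 24 (-0.27). Of 24 immediate early and AP-1 genes 13 passed, 9 of them as lower, against 40.2% and 20.3% of all tested genes. With averaged pairs 7 passed, each lower. Myc, a driver of ribosome biogenesis, averaged 312 ± 47.2 at time 24 and 620.4 ± 53.3 at time 6 (-0.93 ± 0.11, adjusted p = 6.9e-08), and Jund changed by -0.64 ± 0.09 and Nr4a2 by -0.98 ± 0.13, while Egr1 was higher at 1.09 ± 0.23 but not with averaged pairs.

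Targets of TGF-beta and BMP signalling that passed were mostly lower. Of 27 tested genes 10 were lower (6 with averaged pairs) and 2 higher, with a median of -0.29. Over all tested genes 20.3% were lower and 19.9% higher, and 40.2% passed in either direction. The 2 higher genes were Cdkn2b, given above, and Tgfb2 (0.84), which did not pass with averaged pairs. With paired averages 3 were higher, and with the block 4. Id1, a helix-loop-helix inhibitor induced by BMPs, had signals of 395, 289.8, 256 and 289 at time 24, against 929, 789.9, 895 and 857 at time 6 (-1.42 ± 0.10, adjusted p = 5.0e-13). Id3, its relative, averaged 856 ± 49.1 at time 24 and 1638 ± 44.4 at time 6 (-0.91 ± 0.12, adjusted p = 3.0e-07), the SMAD corepressor gene Skil changed by -0.94 ± 0.17 and Tgfb1 by -0.85 ± 0.12. In the contractile list, 7 of 26 tested genes were higher and 6 lower, against 19.9% and 20.3% of all tested genes. With averaged pairs 2 and 4 passed, with paired averages 7 and 6, and with the block 7 and 10. Tagln, the actin-binding transgelin, had signals of 1114, 1071, 1316 and 1398 at time 24, against 4022, 4424, 3598 and 3455 at time 6 (-1.64 ± 0.11, adjusted p = 2.9e-13), smooth muscle actin, Acta2, averaged 5167 ± 384 at time 24 and 8910.0 ± 377 at time 6 (-0.78 ± 0.10, adjusted p = 2.6e-07), and Csrp1 changed by -0.81 ± 0.11. Palld, the actin cross-linker palladin, was higher (1.10 ± 0.13, adjusted p = 3.5e-08). Integrin genes gave 5 lower and 2 higher of 10, against 20.3% and 19.9% of all tested genes, or 3 and 1 with averaged pairs. The vitronectin receptor gene Itgav (-0.70 ± 0.12) and Itgb1 (-0.55 ± 0.11) were among the lower. The laminin receptor gene Itga6 (0.84 ± 0.13) and Itgb5 (0.78 ± 0.20) were the higher. Itgb5 did not pass with averaged pairs.

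The main matrix genes moved little. No collagen gene of 21 tested was higher and 3 were lower, Col7a1, the anchoring fibril collagen (-1.12 ± 0.15, adjusted p = 3.2e-07), Col4a5 (-0.83) and Col5a1 (-0.33), the last 2 not with averaged pairs and Col5a1 neither without replicate 1 of time 24 (-0.29) nor without replicate 1 of time 6 (-0.31). The median of the list was -0.06. With the replicate number as a block 2 collagen genes were higher and 5 lower, and with paired averages 0 and 4. Other matrix genes moved in both directions, 9 higher and 7 lower of 40 (4 and 3 with averaged pairs, 9 and 9 with paired averages, 14 and 12 with the block). These shares over single arrays were near the 19.9% and 20.3% of all tested genes. The basement membrane laminin gene Lama4 averaged 1859 ± 459 at time 24 and 705 ± 162 at time 6 (1.35 ± 0.22, adjusted p = 7.0e-06), Matn2 changed by 1.21 ± 0.16, Dpt, dermatopontin, by 1.10 ± 0.10, and Tnc, tenascin C, by -1.12 ± 0.20. Timp1, an inhibitor of matrix metalloproteases, averaged 3172 ± 604 at time 24 and 7436 ± 409 at time 6 (-1.24 ± 0.14, adjusted p = 3.4e-08), and Adamts5, an aggrecanase, averaged 334 ± 30.1 at time 24 and 107 ± 26.8 at time 6 (1.42 ± 0.11, adjusted p = 1.6e-11). F3, tissue factor, which starts blood clotting, averaged 774 ± 157 at time 24 and 210.1 ± 16.7 at time 6 (1.72 ± 0.13, adjusted p = 2.8e-12). Of 20 interferon-induced genes 8 passed, 7 of them as higher with Ifitm1 among them, or 4 with averaged pairs, and the share was near the 40.2% of all tested genes. Ifitm3 changed by 0.60 ± 0.08 and the peptide transporter gene Tap2 by 0.65 ± 0.07. Of 34 lysosome genes 8 passed (2 with averaged pairs, 5 with paired averages, 16 with the block), below the 40.2% of all tested genes, led by Lipa, the acid lipase (0.69), and Atp6v1h, a proton pump subunit (-0.53).

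Values at the other times set these changes in place; they are given side by side, since comparisons with time 6 or time 24 share arrays. Of the genes lower at time 24, Uap1 averaged 212, 698, 1044, 239 and 256 at times 0, 2, 6, 24 and 48 in PKBa-/- cells. Its signal was thus high at times 2 and 6 and near that of time 0 at time 24. Srxn1 had a like course with means of 203, 788, 733, 203 and 175, and Slc20a1 was highest at time 2, with 1808, 5913, 1834, 499 and 582. Mt2 averaged 1716, 11686, 14556, 6077 and 5090.1, so at time 24 it still stood above time 0. Tagln differed from these, at 5279.8, 6127, 3875, 1225 and 1288, with its lowest means at times 24 and 48. Among the genes higher at time 24, Scara5 averaged 254, 252, 246, 1379.6 and 2374, and Igf1 341, 426, 143, 831 and 2290.5. Both were highest at time 48. Ccnb2 averaged 419, 294, 213, 1458 and 536, with its highest mean at time 24. Adamts1 averaged 1799, 853, 382, 1732 and 1857, so time 6 was its low point.

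The medians of whole lists followed courses of these kinds. Relative to time 0 of the same replicates, the ribosome biogenesis median was 0.74, -0.01 and 0.08 at times 6, 24 and 48 in replicates 1 and 2, and 0.65, 0.03 and 0.19 in replicates 3 and 4. The mitosis median was -0.01, 1.03 and 0.59 at times 6, 24 and 48 in replicates 1 and 2, and -0.20, 0.41 and 0.24 in replicates 3 and 4. The DNA replication median was 0.45, 0.25 and 0.59 at these times in replicates 1 and 2, and 0.31, -0.12 and 0.35 in replicates 3 and 4. The cholesterol synthesis medians parted at time 24, at 0.11 in replicates 1 and 2 and -0.32 in replicates 3 and 4. Over all PKBa-/- arrays that list's median change was -0.39 from time 0 to time 6 and -0.10 from time 0 to time 24. From time 24 to time 48 it was -0.41.

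**Figure D4:**
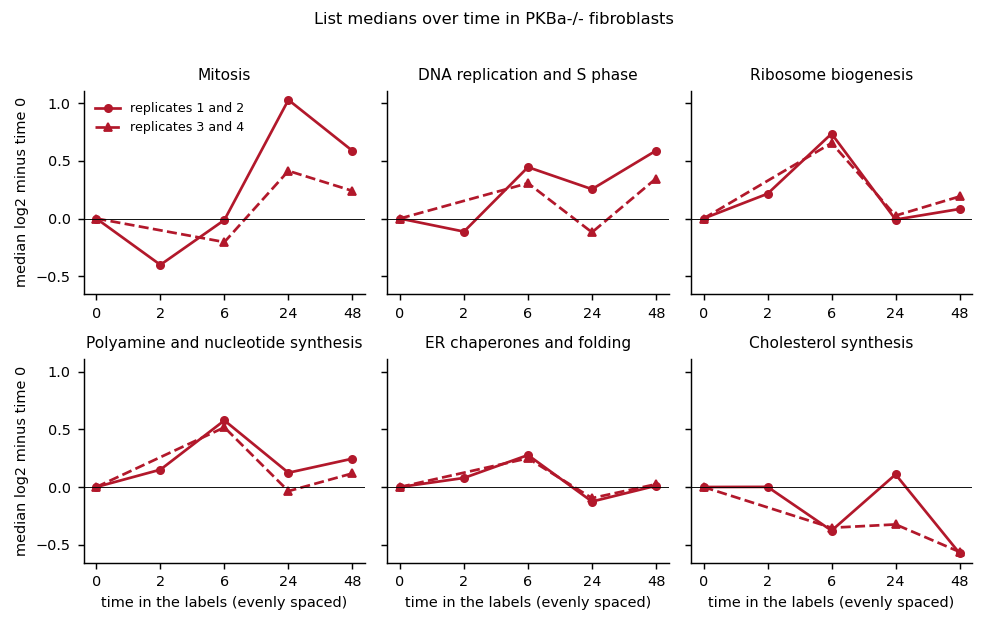
Median log2(signal + 32) of 6 gene lists in PKBa-/- fibroblasts at times 0, 2, 6, 24 and 48 (evenly spaced), each relative to time 0 of the same replicates; circles and solid lines are replicates 1 and 2, triangles and dashed lines replicates 3 and 4, which have no array at time 2. Ribosome biogenesis peaks at time 6 and lies near 0 at time 24, and mitosis peaks at time 24 in both pairs.

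The change from time 6 to time 24 differed between PKBa-/- and wild type for a small part of the genes. The genotype difference (PKBa-/- change minus wild type change) passed for 635 of 7436 genes (8.54%), 309 with the higher change in PKBa-/- (4.16%) and 326 with the lower (4.38%). It passed for 40 genes with averaged pairs, for 471 with paired averages and for 1416 with the replicate number as a block. In wild type itself 2487 genes changed (33.4%), or 676 with averaged pairs. Of the 41 mitosis genes 27 rose further in PKBa-/- by this test and none less far; the wild type median was 0.15, with 9 genes higher there (3 with averaged pairs, 8 with paired averages, 15 with the block). With averaged pairs 1 mitosis gene passed for the difference, with paired averages 22 did and with the block 30. Ccnb2 changed by 2.60 ± 0.14 in PKBa-/- and 1.20 ± 0.14 in wild type (difference 1.40 ± 0.20, adjusted p = 1.3e-05), and Cenpa by 2.10 ± 0.16 and 0.57 ± 0.16 (difference 1.53 ± 0.23, adjusted p = 2.8e-05), neither passing with averaged pairs. For ribosome biogenesis, 32 of 35 genes were lower in wild type too (median -0.58), and 1 genotype difference passed in that list, or 7 with the block and 0 with averaged pairs or paired averages. Nolc1 changed by -1.54 ± 0.10 and -1.23 ± 0.10 (difference -0.31 ± 0.14, adjusted p = 0.2), and Uap1 by -1.98 ± 0.11 and -2.02 ± 0.11 (difference 0.03 ± 0.15, adjusted p = 0.95), neither difference passing. With the block that of Nolc1 passed (-0.31), but not with paired averages. Wild type cells also had 21 of 23 endoplasmic reticulum genes and 14 of 18 tRNA synthetase genes lower, or 6 and 6 with averaged pairs. Of the 23 growth factor receptor genes 9 were higher in wild type, against 18.8% of all tested genes, or 3 with averaged pairs.

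Adamts1 had the highest genotype difference, 3.27 ± 0.16 (adjusted p = 4.0e-16). In wild type cells its signals were 379, 400.0, 560.4 and 435 at time 24, against 1232, 1123, 934 and 886 at time 6, so all time 24 arrays lay below time 6 there, the reverse of PKBa-/-. Ramp3, a partner of calcitonin-type receptors, had a difference of 2.61 ± 0.41 (adjusted p = 4.2e-05), with overlapping signals of 87.3, 102, 170.4 and 159.8 at time 24, against 176, 162, 136 and 135 at time 6 in PKBa-/- and signals of 385, 463, 278 and 273 at time 24, against 4679, 4575, 1522 and 1451 at time 6 in wild type. Cd24a, a surface glycoprotein, likewise fell further in wild type (-2.91 ± 0.19) than in PKBa-/- (-0.94 ± 0.19; difference 1.97 ± 0.27, adjusted p = 6.8e-06). Itga6 rose in PKBa-/- (0.84 ± 0.13) and fell in wild type (-1.14 ± 0.13; difference 1.98 ± 0.19, adjusted p = 3.7e-09). Neither Ramp3 nor Cd24a passed for the difference with averaged pairs. The changes in wild type were small beside those of PKBa-/- for Klhl13 (wild type 0.32 ± 0.13; difference 2.52 ± 0.18, adjusted p = 2.1e-11), Ifitm1 (wild type 0.04 ± 0.11; difference 2.25 ± 0.16, adjusted p = 6.6e-12) and Scara5 (wild type 0.34 ± 0.12; difference 1.99 ± 0.18, adjusted p = 1.4e-09). Nrk changed by 0.21 ± 0.42 in wild type, and its difference of 2.12 ± 0.60 (adjusted p = 0.021) passed neither with averaged pairs nor without wild type time 6 replicate 2, time 24 replicate 3 or time 24 replicate 4 (1.87 to 1.93).

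Ccdc80, a secreted matrix protein, had the lowest difference, -2.58 ± 0.39 (adjusted p = 2.8e-05). Its signals were 645, 644, 308 and 547 at time 24, against 1278, 1142, 1058 and 997 at time 6 in PKBa-/-, and 4634, 4614, 8374 and 7755 at time 24, against 1495, 1429.9, 3100.4 and 3039 at time 6 in wild type, so it fell in PKBa-/- cells (-1.06 ± 0.28) and rose in wild type (1.51 ± 0.28). With averaged pairs neither the PKBa-/- change of Ccdc80 nor its genotype difference passed. Id1 and Id3 fell in PKBa-/- and rose in wild type, by -1.42 ± 0.10 against 0.40 ± 0.10 for Id1 (difference -1.81 ± 0.14, adjusted p = 3.3e-11) and -0.91 ± 0.12 against 0.68 ± 0.12 for Id3 (difference -1.59 ± 0.17, adjusted p = 5.5e-08). Tm4sf1 changed by -1.57 ± 0.12 and 0.25 ± 0.12 (difference -1.83 ± 0.17, adjusted p = 3.7e-09), and Mmd, a membrane protein first found in macrophages, by -1.13 ± 0.21 and 0.69 ± 0.21 (difference -1.83 ± 0.29, adjusted p = 6.2e-05; not with averaged pairs). Bst2, the antiviral protein tetherin (-1.97 ± 0.21, adjusted p = 5.5e-08), the soluble epoxide hydrolase gene Ephx2 (-1.86 ± 0.27, adjusted p = 1.8e-05) and the angiopoietin-like gene Angptl7 (-1.68 ± 0.20, adjusted p = 5.8e-07) changed by -0.39 ± 0.15, -0.06 ± 0.19 and 0.19 ± 0.14 in PKBa-/-, against 1.59 ± 0.15, 1.80 ± 0.19 and 1.88 ± 0.14 in wild type. The difference of Ephx2 did not pass with averaged pairs, and the PKBa-/- call of Bst2 did not hold when any 1 of 7 arrays (each of the 8 but time 24 replicate 1) was left out (-0.40 to -0.35). In the TGF-beta list 9 of 27 genotype differences passed, 7 of them with the lower change in PKBa-/-. Over all tested genes 8.54% passed, and 4.38% passed with the lower change. With averaged pairs 2 passed, with paired averages 10 and with the block 17. The median difference was -0.49 in replicates 1 and 2 and -0.14 in replicates 3 and 4. Igf1 changed by 2.28 ± 0.44 and 0.87 ± 0.44, a difference of 1.42 ± 0.62 that did not pass (adjusted p = 0.18), nor with paired averages, but did with the replicate number as a block (1.42). Pdgfra changed by 2.14 ± 0.15 and 0.80 ± 0.15, and its difference of 1.34 ± 0.22 passed (adjusted p = 6.2e-05), though not with averaged pairs.

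**Figure D5:**
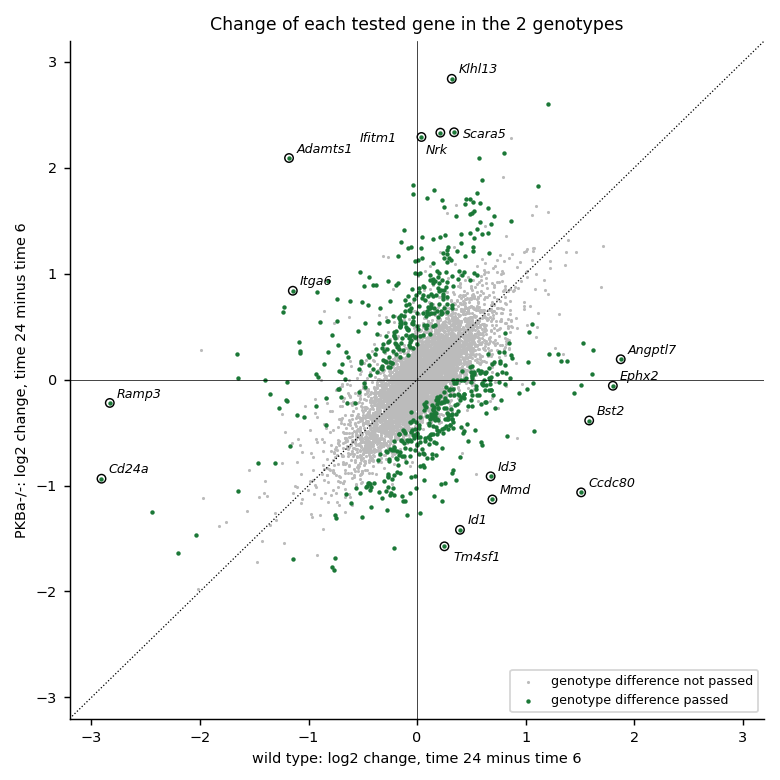
Each point is 1 of 7436 tested genes, with its log2 change from time 6 to time 24 in PKBa-/- (vertical) and in wild type (horizontal); green points passed for the genotype difference, and the 16 labelled genes have its 8 highest and 8 lowest values. The dotted line marks equal changes; Adamts1 and Itga6 lie in the upper left, and Id1, Id3, Ccdc80, Mmd and Tm4sf1 in the lower right.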

How the data were processed

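RNA of 36 fibroblast samples was hybridised to 1-colour Affymetrix mouse arrays, per the labels after TRIzol extraction and labelling as biotinylated cRNA. The authors deposited 1 table of linear signal intensity for 22690 probe sets; the sources used here do not give how it was summarised and scaled, and array medians of 134 to 145 were left as deposited. Of the probe sets, 20380 had 1 gene symbol in the platform annotation, 691 several, 1555 none and 64 were controls. The brightest probe set stood for each of 12393 genes, and the dimmest 40% were not tested, which left 7436 with a mean signal of at least 123. The number of arrays limits the precision.

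Group means of log2(signal + 32) were fitted over all 36 arrays with limma 3.58.1 (R 4.3.3), with moderated two-sided tests and Benjamini-Hochberg adjustment over 7436 genes. On simulated data for PKBa-/- time 24 minus time 6 (7436 genes) this recovered 86.6% of 1.5-fold, 97.0% of 2-fold and 100% of 4-fold changes, with 11 false calls when arrays were independent. When arrays of a pair shared a deviation, false calls were 301 with single arrays and 6 with averaged pairs. In that case averaged pairs recovered 62.7% of 1.5-fold and 89.6% of 2-fold changes. The simulated deviation was drawn separately for each genotype and time, whereas in the data close pairs deviated together across times 6 and 24. These false call counts may therefore not hold for the data.

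Replicate numbers come from the labels, which do not say that they pair the arrays. Same-numbered arrays of time 24 and time 6 deviated together in all 8 pairs (residual correlations 0.342 to 0.621). Differently numbered arrays of the same close pair did so as well (0.379 to 0.589), so these values do not single out the number. The main fit did not pair arrays. The replicate number and the close pair entered only in the alternative fits.

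The comparison and the gene lists were chosen with earlier results of these data known. Genes named are the 15 highest and 15 lowest changes among genes that passed with 1 sign in both close pairs, the 8 highest and 8 lowest genotype differences, up to 5 passing members of a list with the largest changes, members where a count of 5 or fewer is given, and Akt1; others were chosen after their values were seen. Alternatives were other offsets, filters, probe set rules, normalizations, replicate models and each array left out. Promoters were the first listed per gene in RefSeq (GRCm38.p6).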

Additional observations from a re-analysis of the deposited data

Results flagged for a closer look

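Among the 4 arrays of a group, a single array stood apart from the others by Dixon's criterion for 12 of the genes named. Chance gives such a result in about 1 in 20 groups. All 199 genes named with a PKBa-/- change were examined at both times, so this number of flags can arise by chance. At time 6 the high array was Slc20a1 at 2297, Ncapd2 at 431, Rpa2 at 394, Nop56 at 2229, Nupr1 at 162 and Adamts5 at 146, and the low array Vldlr at 139.9 and Bmp1 at 2054. At time 24 the high array was Timm23 at 2163 and Jund at 1248, and the low array Srxn1 at 171 and Col4a5 at 282. Leaving out any 1 array did not end the call of these genes, except for Bmp1, as given above.

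The change from time 6 to time 24 differed between PKBa-/- and wild type, by limma's test of the difference (PKBa-/- minus wild type), for 24 of the genes described in both genotypes. Of these, the positive differences were 3.27 for Adamts1, 2.61 for Ramp3, 2.52 for Klhl13, 2.25 for Ifitm1, 2.12 for Nrk, 1.99 for Scara5, 1.98 for Itga6, 1.97 for Cd24a, 1.53 for Cenpa, 1.40 for Ccnb2 and 1.34 for Pdgfra. In cholesterol synthesis they were 1.91 for Cyp51, 1.87 for Hmgcs1, 1.19 for Pmvk, 0.74 for Dhcr7 and 0.53 for Hsd17b7. The difference of Hsd17b7 did not pass when any 1 of 10 arrays was left out (0.47 to 0.53). The negative differences were -2.58 for Ccdc80, -1.97 for Bst2, -1.86 for Ephx2, -1.83 for Tm4sf1, -1.83 for Mmd, -1.81 for Id1, -1.68 for Angptl7 and -1.59 for Id3.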

How the results depend on the processing

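Counts of passing genes moved most with the treatment of the close pairs of arrays. In PKBa-/- (2991 passed) averaging the pairs gave 1328 (644 higher, 684 lower), a random effect of the pair 1644 (814 and 830), and array weights, whose fit did not fully converge, 2477 higher; paired averages gave 2729. In wild type (2487) averaging gave 676 (350 and 326), the random effect 1073 (569 and 504), array weights 3822 (2116 and 1706), and replicates 1 and 2 alone 3900 (2152 and 1748). The genotype difference (635) passed for 40 genes with averages (26 and 14), 471 with paired averages (249 and 222), 155 with the random effect (95 and 60), 1663 with array weights (959 and 704), 1416 with the replicate number as a block (626 and 790), 1511 with the pair as a covariate (657 and 854) and 1779 in replicates 1 and 2 alone (899 and 880), and in replicates 3 and 4 alone 521 were lower. Offsets, filters on low signal, quantile normalization and probe set means kept these counts within 1.5 times.

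Of the 199 genes named with a PKBa-/- change, 29 no longer passed with averages, 16 with the random effect, 1 (Lig1) with paired averages, 10 in replicates 3 and 4 alone, 0 to 2 under each other offset, filter, probe set rule or normalization, and 1 to 5 when 1 array was left out (most without replicate 1 of time 24). Among these genes the block changed the PKBa-/- call of Bub3, Adsl and Vars alone. Signs turned in replicates 1 and 2 alone for Akt1 (-0.12) and in replicates 3 and 4 alone for Incenp (-0.076), Cks1b (-0.024), Ramp3 (0.23), Ephx2 (0.14) and the genotype difference of Uap1 (-0.096), none of which passed over all arrays; the cause was not tested. Leaving out 1 array at a time gave -0.071 to 0.23 for Incenp, -0.023 to 0.16 for Cks1b, -0.14 to 0.0070 for Ephx2 and -0.028 to 0.11 for the difference of Uap1. In replicates 3 and 4 alone Akt1 passed as higher (0.48). The calls of Pik3ca and Col5a1 ended with probe set means, and that of Bst2 with an offset of 64, no filter or quantile normalization. Of 108 named genes with further probe sets, 8 had a dimmer probe set of opposite sign. Low signals limit what can be said of dim genes, such as Akt1 in PKBa-/- cells.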

Other observations

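Several smaller lists held single genes with large changes while their medians lay near that of all tested genes. In iron handling, where Scara5 is also listed, 7 of 13 genes passed, against 40.2% of all tested genes (4 with averaged pairs, median 0.01). The iron exporter gene Slc40a1 averaged 240.3 ± 24.0 at time 24 and 134 ± 21.8 at time 6 (SD, n = 4 each). Its change was 0.72 ± 0.13 (adjusted p = 2.4e-05 by limma), and the importer gene Slc11a2 changed by -0.73 ± 0.11. In the Wnt list 6 of 21 genes passed (3 with averaged pairs, median 0.06), below the 40.2% of all tested genes. There the ligand gene Rspo2, an agonist of Wnt signalling, averaged 399.7 ± 69.3 at time 24 and 183 ± 11.8 at time 6 (1.00 ± 0.15, adjusted p = 3.0e-06 by limma). The receptor gene Fzd2 changed by 1.02 ± 0.13. Nfil3, a repressor that belongs to the clock list, averaged 227 ± 59.7 at time 24 and 538 ± 62.0 at time 6 (-1.16 ± 0.12, adjusted p = 4.7e-09). The vitamin D receptor gene Vdr averaged 1218 ± 156 at time 24 and 2798 ± 103 at time 6 (-1.19 ± 0.16, adjusted p = 5.3e-07), and Rdh10, an enzyme of retinoic acid synthesis, changed by -0.95 ± 0.14.

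Among p53 targets Trp53inp1, a stress protein (1.15 ± 0.19), and Sesn1, a sestrin (0.81 ± 0.12), were higher, while the exonuclease gene Aen (-1.12 ± 0.13) was lower; the list's median was -0.06 over 14 tested genes. Both passing genes of the 4 tested aryl hydrocarbon receptor targets were higher, Cyp1b1, an oxidase of steroids and xenobiotics (1.00 ± 0.17), and Tiparp, a feedback inhibitor of the receptor (0.92 ± 0.09). In the splicing list 15 of 37 genes passed, a share near the 40.2% of all tested genes (5 with averaged pairs), among them the splicing factor gene Srsf2 (-0.78 ± 0.09) and Hnrnpl, a binder of nuclear RNA (0.64 ± 0.08). No genotype difference was read for the genes of these paragraphs.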
